A study of Mus musculus with 18 samples.

Results

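The 8 genes described here encode members of the RAS-ERK signaling route and its brakes: the RAS GTPases Nras, Hras and Rras, the RAF kinase Braf, the ERK phosphatases Dusp4 and Dusp6, and the Sprouty inhibitors Spry2 and Spry4. They were picked by symbol from the gene-level count table, with results of these data already known. Their levels and differences are therefore given as descriptions without p-values. Where any of the 8 is said below to pass or keep passing a threshold, that is a description too. All 8 were found among the 55450 genes of the table, and all 8 were among the 19186 genes kept by a filter on low counts. All are protein-coding, at chr3:103058285-103067914 (Nras, plus strand), chr7:141189105-141194005 (Hras, minus), chr7:45017961-45021647 (Rras, plus), chr6:39603237-39725463 (Braf, minus), chr8:34807297-34819894 (Dusp4, plus), chr10:99263231-99267489 (Dusp6, plus) and chr14:105891947-105896819 (Spry2, minus) of GRCm38, with Spry4 on chromosome 18. Bulk RNA was sequenced from 15 mammary tumors and 3 normal mammary glands of female C57Bl/6 mice, each sample from a different mouse.

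The 15 tumors fell into 3 genotypes of 5 tumors each. B1/P/Rbf mice carried Brca1fl/fl and Trp53fl/fl, which are conditional alleles deleted by Cre recombinase, together with the transgene TgK18GT121Tg/+. That transgene uses the keratin 18 promoter to express a fragment of SV40 large T antigen, T121, in epithelial cells after Cre, and T121 inhibits pRb, p107 and p130. B1/P mice carried Brca1fl/fl and Trp53fl/fl without the transgene, and P/Rbf mice carried Trp53fl/fl and the transgene with intact Brca1. Floxed Trp53 was therefore shared by all tumor groups, and tumors in all of them were started by adenovirus expressing Cre, delivered through the nipple into the ducts of adult females. The 3 normal glands came from wild type mice, and the labels do not say that these glands received virus.

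RAS proteins are small GTPases that switch on when an exchange factor loads them with GTP, and active RAS recruits RAF kinases, which drive MEK and then ERK. ERK in turn raises transcription of its own inhibitors, among them the phosphatases Dusp4 and Dusp6 and the Sprouty proteins, so the levels of these genes are widely used as a readout of ERK activity. Rras is a RAS relative best known for its part in integrin adhesion and in vessel cells. Phosphorylated ERK, RAS-GTP and DNA copy number were not measured in these samples.

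Library totals ran from 27661173 to 37794889 expected counts, with a median of 33802254, and the lowest value of any of the 8 genes rested on 183 expected counts (Spry2 in B1/P/Rbf tumor 208857). Summed levels of adipocyte markers were 9182 to 13247 CPM (expected counts scaled to the same library size) in the normal glands against 2.76 to 172.3 CPM in the tumors, and those of skeletal muscle were 21778 to 42844 CPM against 0.92 to 581.4 CPM. In bulk tissue, fewer cells of a type and less RNA per cell cannot be told apart, and this bears on every tumor against gland difference below. Luminal epithelial markers summed to 683 to 3074 CPM in B1/P tumors, to 2832 to 6351 CPM in B1/P/Rbf and to 5931 to 12263 CPM in P/Rbf. Trp53, the targeted gene shared by all tumors, was at 6.75 to 24.3 CPM in the tumors and at 54.4 to 71.8 CPM in the glands. Brca1 was at 8.13 to 27.9 CPM in B1/P, 21.1 to 45 CPM in B1/P/Rbf and 44.9 to 116 CPM in P/Rbf tumors, but at 4.61 to 5.99 CPM in the glands, so its whole-gene level separated the genotypes only in part. The 45 CPM belong to tumor 208863, which the labels place in B1/P/Rbf. The other 4 B1/P/Rbf tumors were at 21.1 to 27.9 CPM, and it lay level with the lowest P/Rbf tumor. Its Brca1 level was thus outside the rest of its genotype, although the label names alleles and not a level. In the study, PCR found the floxed alleles recombined in every mammary tumor. The study's RT-qPCR of Brca1 RNA also describes the loss as partial in that tumor. The B1/P/Rbf values that rest on it are given with and without it. For the analyses here the libraries were grouped into 2 sets, which were inferred from the fold changes listed by the study. No label or method names these sets, and whether they reflect any difference in handling is not known. Set 1 was made up of the 5 B1/P/Rbf tumors with B1/P tumors 225068, 225070 and 246361. Set 2 held the glands, the 5 P/Rbf tumors and the remaining B1/P tumors 255232 and 248662. B1/P/Rbf tumors could not be compared with P/Rbf tumors or with glands within a set.

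**Figure D1:**
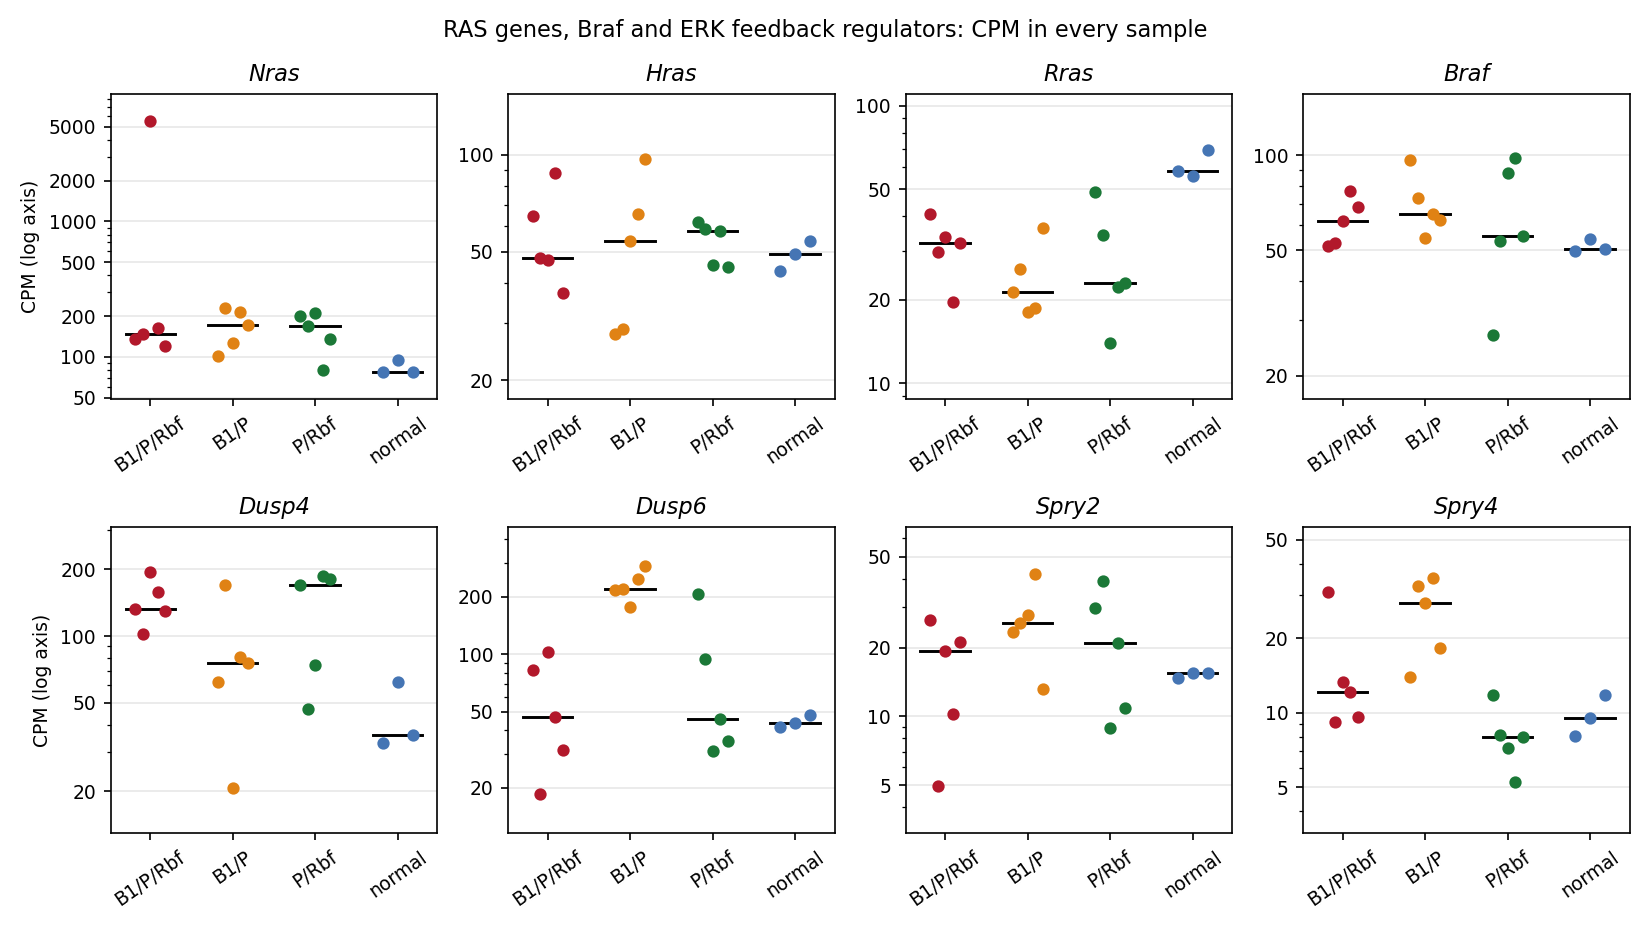
Level of each of the 8 genes in every sample, in CPM on a log axis, by genotype; each point is 1 mouse and the bar is the group median. Nras at 5505 CPM in 1 B1/P/Rbf tumor stands far above all other points of its panel, the 5 B1/P tumors lie above all B1/P/Rbf tumors for Dusp6, and the 3 glands lie above all tumors for Rras.

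Nras was set apart by 1 tumor, the B1/P/Rbf tumor whose Brca1 level lay above the rest of its genotype. Its levels in the B1/P/Rbf tumors were 136 CPM in tumor 208855, 147.7 in 208857, 5505 in 208863, 163.9 in 209490 and 121 in 210906. In the B1/P tumors 225068, 225070, 246361, 255232 and 248662 they were 101, 229, 126, 213 and 171 CPM. In the P/Rbf tumors 287842, 287845, 290860, 287822 and 290845 they were 200.4, 170.1, 212, 79.4 and 136 CPM. The glands had 77.7, 94.7 and 77.4 CPM. Tumor 208863 was thus the one high sample, and the other 14 tumors, at 79.4 to 229 CPM, overlapped between genotypes.

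In tumor 208863, Nras reached 199663 expected counts, or 0.557% of the library, against at most 0.0237% in any of the other 17 libraries. This was 38.8-fold the median of the other 4 B1/P/Rbf tumors and 24.1-fold the highest of the other 14 tumors. The B1/P/Rbf mean of 1215 ± 2399 CPM (SD, n = 5) became 142 ± 18.2 CPM (SD, n = 4) without that tumor, beside 168 ± 54.7 CPM in B1/P (SD, n = 5), 159.5 ± 53.7 CPM in P/Rbf (SD, n = 5) and 83.3 ± 9.92 CPM in the glands (SD, n = 3). Hras, a close relative of Nras, was at 47.3 CPM in the same tumor, within the 37.2 to 87.9 CPM of the other 4 B1/P/Rbf tumors.

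The genes next to Nras were raised with it. On the log2 scale of CPM against the median of the other 4 B1/P/Rbf tumors, a run of consecutive kept genes over 160 kb (chr3:102939658-103099720) was higher in tumor 208863. The differences there included 4.16 for Nr1h5, 4.81 for Sike1, 5.28 for Nras, 5.53 for Gm43062, 4.68 for Ampd1 and 3.99 for Gm43063. Nr1h5, Ampd1 and Gm43063 were at under 5 CPM even there, and Gm43063 lies inside Ampd1 on the same strand, so reads of that pair may have been divided between them. Ampd1, a skeletal muscle enzyme, was far higher in a sample outside the tumor's genotype, up to 341.7 CPM.

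The run had sharp ends. The next kept gene before it, Tspan2, began 324 kb before Nras and differed by 0.40, and the next gene after it, Dennd2c, began 44 kb after the start of Nras and differed by -0.13, followed by 0.03 for Bcas2 and 0.13 for Trim33. Over a wider window of 10 neighbours on each side (2009 kb), 18 of 20 neighbours were above 0, with a median of only 0.45, since most of those 20 lie outside the run.

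**Figure D2:**
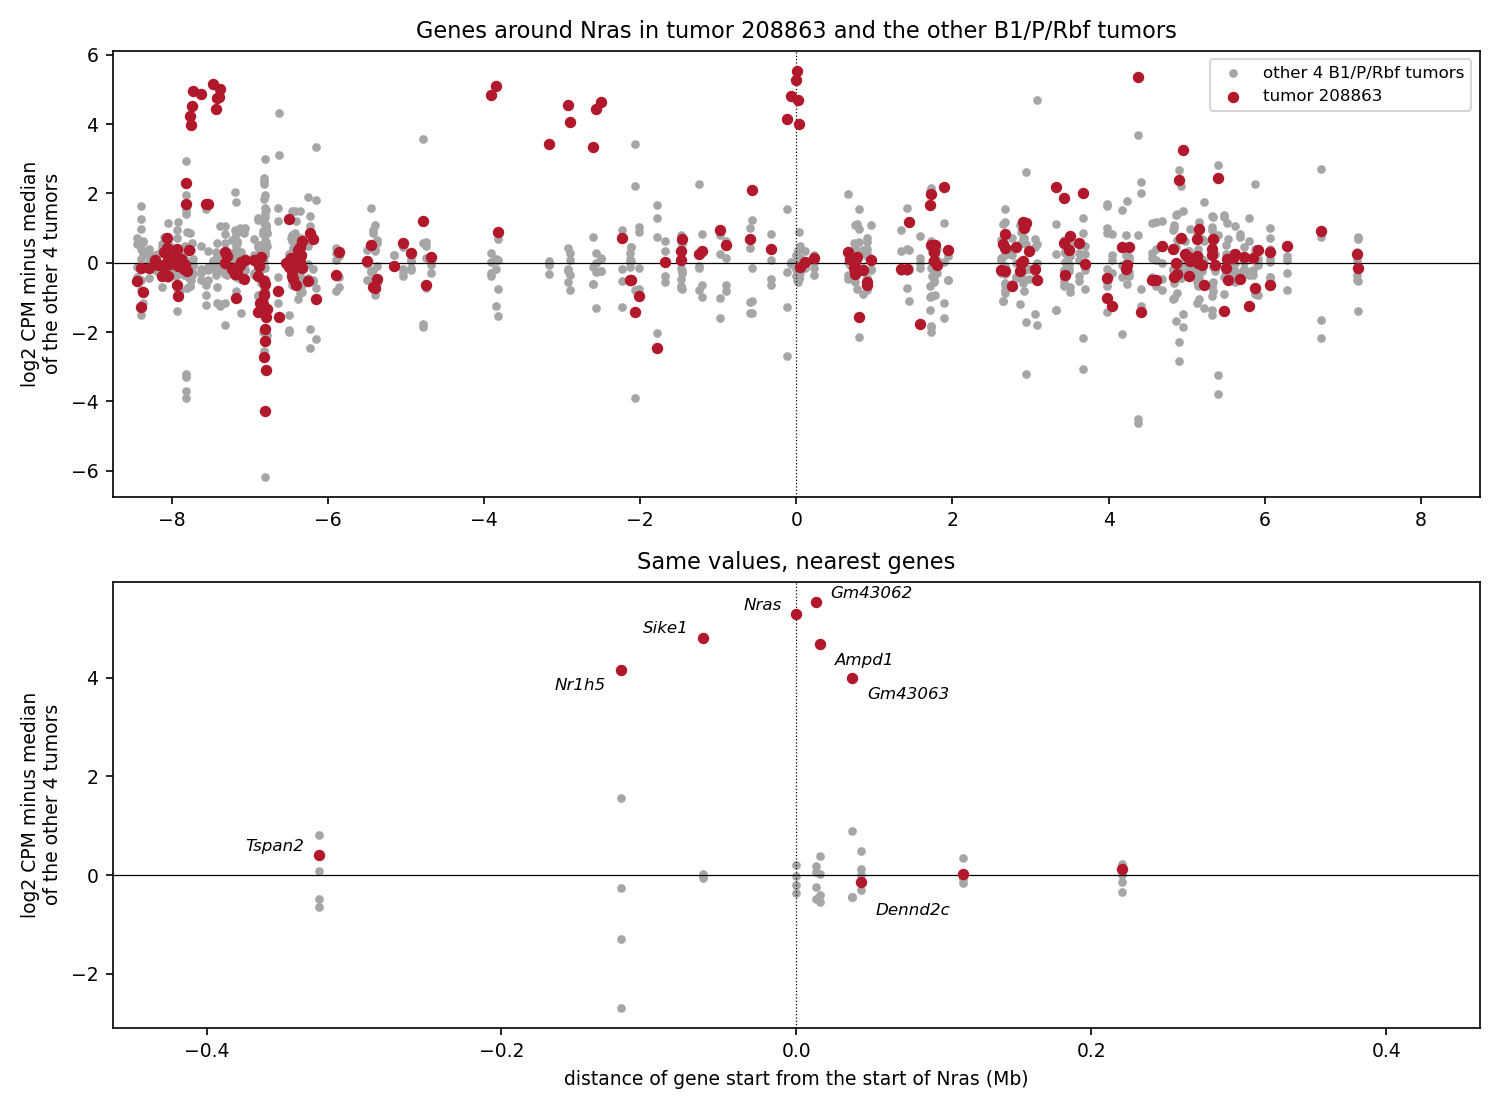
Log2 CPM minus the median of the other 4 B1/P/Rbf tumors for kept genes around Nras, by distance of each gene's start from the start of Nras in Mb, in tumor 208863 (red) and in those other 4 tumors (grey); the upper panel spans 8.5 Mb on each side and the lower panel the nearest genes. In tumor 208863 the genes from Nr1h5 to Gm43063 lie at 3.99 to 5.53, Tspan2 and Dennd2c near 0, and further groups of raised genes lie before the Nras run.

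Other stretches of chromosome 3 were raised in the same tumor by like amounts, with most of the genes between the later ones near 0. Among 249 kept genes within 8.5 Mb of Nras, 33 were at least 2 above the other 4 B1/P/Rbf tumors on the log2 scale, while the 950 kept genes of chromosome 3 outside runs had a median of 0.03. At -7762 to -7624 kb from the start of Nras, Anxa9, Cers2, Setdb1 and Arnt were higher by 4.23, 4.53, 4.94 and 4.87. At -7469 to -7382 kb, Golph3l, Ensa, Mcl1 and Adamtsl4 were higher by 5.16, 4.44, 4.78 and 5.01. Mcl1, an anti-apoptotic BCL2 relative, was at 6317 CPM against 204.5 to 239 CPM in the other 4 tumors, so it was raised to much the same degree as Nras. At -3173 to -2496 kb, Wdr3, Gdap2, Tent5c and Man1a2 were higher by 4.54, 4.05, 3.35 and 4.64. The 71 kept genes between the second and the last of these stretches had a median of -0.14, with Wars2 at 4.84 and Gm42717 at 5.10 as the 2 that were at least 2, and the 17 between the last stretch and the Nras run had a median of 0.34, with 1 of them at least 2. Ctsk and Ctss, the 2 kept genes between the first pair of stretches, were at 1.69 and 1.68. When genes dropped by the low-count filter were listed too, a step added after seeing the data, 16 more genes of the window were raised in this tumor.

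Runs of raised neighbours were not limited to tumor 208863. With a run taken as at least 3 consecutive kept genes, each at least 2 above the other 4 tumors of its genotype on the log2 scale, this tumor had 12 runs, 7 of them on chromosome 3, and the other 14 tumors had 8 to 46 runs each. Many runs in the other tumors held neighbouring members of the same gene family, such as Klk, Ifi, Gbp or Sprr genes. The run around Nras held genes of different families. Of the 307 runs in the 15 tumors, the one around Nras was the only one that held any of the 8 genes. Of the other 7 genes, each had its largest deviation in another tumor: 1.3 for Hras in B1/P tumor 248662, 1.11 for Rras in P/Rbf tumor 287842, 0.85 for Braf in P/Rbf tumor 287822, 1.32 for Dusp4 in B1/P tumor 225070, 2.36 for Dusp6 in P/Rbf tumor 287842, 1.36 for Spry2 in P/Rbf tumor 287845 and 1.5 for Spry4 in B1/P/Rbf tumor 208855. The median over the 20 neighbours was between -0.03 (Spry2) and 0.29 (Hras) for 6 of these, and 0.91 for Dusp6.

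The single Nras tumor set the group difference. The fitted log2 fold change of B1/P/Rbf over B1/P tumors was 2.85 ± 0.93 (SE) and over glands 3.87 ± 1.21, both past the threshold of an adjusted p of 0.05, called below (Benjamini-Hochberg over all 19186 genes, edgeR's quasi-likelihood test). Without tumor 208863 they were -0.24 and 0.77, and neither was called. The call against B1/P was lost in 15 of 25 alternative analyses, among them leaving out any 1 of 10 libraries other than 208863 (2.72 to 2.99), and that against the glands in 8 of 25, among them leaving out any gland (3.83 to 4.04). Over P/Rbf tumors the difference was 2.93 ± 0.93 and was not called. B1/P and P/Rbf tumors differed from the glands by 1.01 ± 1.04 and 0.94 ± 1.04, not called in the fit over all samples, where the spread of tumor 208863 enters the error, but called without it, at 1.01 ± 0.31 and 0.94 ± 0.31.

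The other genes of the route in tumor 208863 gave a mixed picture. Dusp4 was at 193.7 CPM there, the highest of all 15 tumors, with 102.5 to 157.6 CPM in the other 4 B1/P/Rbf tumors. Dusp6 was at 103 CPM, the highest of the 5 B1/P/Rbf tumors (18.6 to 82.2 CPM in the others) but rank 7 of 15 tumors. Spry4 and Spry2 ranked 2 and 3 of 5, at 13.3 and 19.3 CPM. Among 28 feedback and ERK output genes, 7 were highest of 5 in this tumor, none lowest, and the median difference from the other 4 tumors was 0.30 on the log2 scale. The 7 were Dusp4, Dusp6, Dusp10, Spred1, Fosl1, Phlda1 and Epha4, whereas Etv4 and Etv5, ETS factors that are common ERK outputs, ranked 4 of 5 with differences of -0.97 and -0.77. These are ranks within 5 tumors and were not tested, and the share of all genes ranking highest or lowest in this tumor is not given here.

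Hras overlapped between all groups when the library sets were pooled. Its B1/P/Rbf levels were 64.8, 47.9, 47.3, 87.9 and 37.2 CPM, its B1/P levels 27.9, 28.8, 53.9, 65.8 and 96.9 CPM and its P/Rbf levels 61.8, 59.0, 45.4, 58.2 and 44.9 CPM, with 43.5, 49.2 and 54.0 CPM in the glands, each in the order given for Nras. The group means, 57.0 ± 19.9, 54.7 ± 28.7, 53.8 ± 8.05 and 48.9 ± 5.24 CPM (SD; 5, 5, 5 and 3 mice), lay within their spreads, and no fitted difference exceeded 0.22. Within B1/P, however, the library sets stood apart: the 3 tumors of set 1 were at 27.9 to 53.9 CPM and the 2 of set 2 at 65.8 to 96.9 CPM. Within set 2, those 2 lay above all P/Rbf tumors (44.9 to 61.8 CPM) and all glands (43.5 to 54.0 CPM), with mean log2 differences of -0.58 for P/Rbf against B1/P and 0.71 for B1/P against the glands, whereas within set 1 B1/P/Rbf and B1/P tumors overlapped. Hras followed the summed skeletal muscle markers over the 15 tumors with r = 0.55, and 0.65 within genotypes. That sum was 581.4 CPM in B1/P tumor 248662, the tumor highest in Hras, and 0.92 to 22.5 CPM in the other 14. Of the 5 muscle markers, 3 and 4 were called lower than B1/P in B1/P/Rbf and P/Rbf. The other B1/P tumors had sums of 1.42 to 9.14 CPM, against 4.51 to 22.5 CPM in B1/P/Rbf and 0.92 to 3.88 CPM in P/Rbf. In the glands the sum was 21778 to 42844 CPM, with Hras at 43.5 to 54.0 CPM. The part of muscle content in the Hras levels was not tested. A fit with a term for the set gave a difference of 1.36 between B1/P/Rbf tumors and glands and called it.

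Rras was lower in every tumor than in every gland. In the order given for Nras, B1/P/Rbf levels were 40.6, 29.7, 33.6, 19.7 and 32.0 CPM, B1/P levels 21.3, 25.9, 18.1, 18.7 and 36.2 CPM, and P/Rbf levels 48.8, 34.2, 14.0, 22.2 and 23.0 CPM. The glands had 58.1, 55.6 and 69.1 CPM. The tumor groups overlapped with each other throughout, and the highest tumor, P/Rbf 287842 at 48.8 CPM, lay below the lowest gland. The log2 fold changes against the glands were -0.97 ± 0.33 for B1/P/Rbf, -1.34 ± 0.33 for B1/P and -1.10 ± 0.33 for P/Rbf (SE), and all were called. Genes lower than the glands without overlap made up 27.4%, 22.7% and 26.5% of all genes in these comparisons. The B1/P/Rbf call was lost in 7 of 24 alternatives: without tumor 208857 (-0.95) or 209490 (-0.84), without any gland (-0.98 to -0.86), with a library-set term (-0.64), and with library sizes not adjusted by TMM (-0.60). Leaving out TMM moved the median of all genes up by 0.37, 0.35 and 0.27 in the 3 comparisons with the glands, and the other Rras calls held. The B1/P call was lost with a library-set term (-1.15) and the P/Rbf call without gland 330156 (-0.98). Within set 2 the mean log2 difference from the glands was -1.22 for both B1/P and P/Rbf tumors, with no overlap. Endothelial markers moved with Rras: their sum was 68.8 to 293 CPM in the tumors and 339.5 to 377.9 CPM in the glands, and of 5 markers 3 were called lower for B1/P/Rbf, 3 for B1/P and 4 for P/Rbf. Over the 15 tumors Rras and that sum had r = 0.05, and the part of vessel content in the difference from the glands was not tested.

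Braf, the RAF kinase of the group, differed little between group medians. B1/P/Rbf levels were 51.6, 52.9, 61.9, 76.9 and 68.7 CPM, B1/P levels 96.5, 73.5, 54.7, 65.2 and 62.3 CPM, P/Rbf levels 26.9, 53.4, 88.1, 98.3 and 55.7 CPM, and gland levels 49.8, 54.4 and 50.6 CPM. P/Rbf tumors spread most, by 3.66-fold from the lowest (287842) to the highest (287822), and the only groups that did not overlap were B1/P and the glands, by 54.7 against 54.4 CPM at their nearest. None of the 6 fitted differences was called, and the largest was 0.45 ± 0.31 for B1/P over glands. Across the 15 tumors Braf and Rras were inversely related, with Pearson r of -0.68 over log2 levels and -0.69 after removing genotype means. These tumors share genotypes and library sets, and the value is a description.

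Per kb of merged exon, the median level over tumors was highest for Dusp4 at 47.6 CPM per kb, then Nras at 30.7, Dusp6 at 30.3, Rras at 23.1, Hras at 14.4, Spry2 at 10.2, Braf at 4.49 and Spry4 at 2.56 CPM per kb. Nras and Dusp6 lay next to each other in this order and their tumor ranges overlapped. In the glands Rras led, at 51.8 CPM per kb, followed by Nras at 14.6, Dusp6 at 14.0, Hras at 13.2 and Dusp4 at 13.1 CPM per kb.

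Dusp4, a phosphatase of ERK in the nucleus, was higher in both tumor groups with the transgene than in the glands, with wide spread. In the same order, B1/P/Rbf levels were 132, 102.5, 193.7, 157.6 and 130.4 CPM, B1/P levels 62.1, 170.6, 20.8, 80.8 and 75.3 CPM, and P/Rbf levels 169.8, 46.8, 74.3, 187 and 180.6 CPM. The glands had 33.0, 62.2 and 35.8 CPM. All 5 B1/P/Rbf tumors lay above all glands, while B1/P and P/Rbf tumors overlapped with them. Against the glands the log2 fold change was 1.71 ± 0.55 (SE) for B1/P/Rbf and 1.59 ± 0.55 for P/Rbf, both called, and 0.91 ± 0.53 for B1/P, not called. The first call was lost in 3 of 25 alternatives, without gland 330154 (1.57) or 330156 (1.6) and with a library-set term (1.6). The second was lost in 6 of 25, among them without P/Rbf tumor 287822 (1.43) or 290845 (1.45) and without gland 330154 (1.46) or 330156 (1.49). Differences from B1/P were 0.81 ± 0.45 for B1/P/Rbf and 0.69 ± 0.45 for P/Rbf, and neither was called. Dusp4 followed the summed luminal markers over the 15 tumors (r = 0.69, and 0.64 within genotypes) and ran against those of the myoepithelium (r = -0.65, and -0.49 within genotypes), and the part of epithelial composition in its levels was not tested.

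Dusp6, the cytoplasmic phosphatase most specific for ERK, was highest in B1/P tumors. It was at 216, 219, 177, 246 and 289 CPM in the B1/P tumors 225068, 225070, 246361, 255232 and 248662. In B1/P/Rbf it was at 82.2, 18.6, 103, 47.0 and 31.7 CPM. The P/Rbf tumors had 206, 94.9, 31.2, 45.8 and 35 CPM, and the glands 41.8, 43.8 and 48.0 CPM. Every B1/P tumor was above every B1/P/Rbf tumor and every gland, and 4 of 5 P/Rbf tumors were below all B1/P tumors. The exception was P/Rbf tumor 287842, which lay above the lowest B1/P tumor, 246361.

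The B1/P mean was 229 ± 41.6 CPM, against 56.6 ± 35.3 CPM in B1/P/Rbf, 82.5 ± 73.4 CPM in P/Rbf (SD, n = 5 each) and 44.5 ± 3.20 CPM in the glands (SD, n = 3). In the order of levels B1/P came first, and the other 3 groups did not stand apart from each other. B1/P/Rbf was lower than B1/P by a log2 fold change of -2.02 ± 0.50 (SE), a 4.05-fold difference, and the call held in all 25 alternatives (-2.35 to -1.79). B1/P was higher than the glands by 2.36 ± 0.62, which also held in all 25 (2.09 to 2.72). P/Rbf was lower than B1/P by -1.47 ± 0.50, a call lost in 16 of 25 alternatives, among them leaving out any B1/P tumor (-1.56 to -1.38), any P/Rbf tumor but 287842 (-1.53 to -1.27), any gland (-1.45 to -1.43) or B1/P/Rbf tumor 209490 (-1.47). Without P/Rbf tumor 287842 it was -2.10 and called. Within set 1, the 5 B1/P/Rbf tumors (18.6 to 103 CPM) did not overlap with those of B1/P (177 to 219 CPM), and within set 2, the 5 P/Rbf tumors (31.2 to 206 CPM) did not overlap with those of B1/P (246 to 289 CPM), with mean log2 differences of -2.10 and -2.09. Fibroblast markers summed to 2446 to 12643 CPM in B1/P tumors, to 799.5 to 4638 CPM in B1/P/Rbf and to 1211 to 3934 CPM in P/Rbf. In B1/P/Rbf against B1/P, none of the 6 fibroblast markers was called, and in P/Rbf against B1/P 2 of 6 were lower. Dusp6 correlated with the sum over the 15 tumors with r = 0.62, and 0.29 within genotypes, and the part of stromal content in the difference was not tested. Myoepithelial markers separated B1/P tumors, at a sum of 329.4 to 1844 CPM, from B1/P/Rbf tumors, at 34.8 to 275.2 CPM, where the 5 markers had a median difference of -2.75 on the log2 scale and 1 of them was called lower. Their sum correlated with Dusp6 over the 15 tumors with r = 0.49, and 0.03 within genotypes, and their part in the difference was not tested either.

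The P/Rbf tumor 287842 was the one with high Dusp6, 2.36 above the other 4 P/Rbf tumors on the log2 scale. Of its 20 nearest kept neighbours 16 were also above 0, over 6609 kb, with a median of 0.91. The largest differences among them were 3.42 for Dcn, at -1784 kb from the start of Dusp6, 2.95 for B530045E10Rik, 36 kb after its start, 1.91 for Gm47956 and 1.91 for Rassf9, 3249 kb after it. These 4 were scattered and made up no run of raised genes by the rule above. Dcn, a collagen-binding proteoglycan, is also one of the fibroblast markers, whose sum in this tumor, 1395 CPM, was at the low end of the P/Rbf range.

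Promoter sequence was at hand in RefSeq (GRCm38.p6) for 6 of the 8 genes, all but Dusp4 and Spry4. The 250 bases before each RefSeq transcript start, of which Rras has 3 and the others 1, were searched on both strands for the ETS core CGGAA, for the AP-1 site TGANTCA, the E-box CACGTG and the cyclic AMP response element TGACGTCA, the first 2 being sites of transcription factor families that ERK acts on. Dusp6 and Hras held CGGAA, which 25.2% of 32851 windows hold. Nras held CACGTG (6.02% of windows), Braf held TGACGTCA (1.55% of windows), and none of the 6 held TGANTCA (6.75% of windows). The upstream windows of Dusp6 (chr10:99262981-99263230, plus strand), with 3 CGGAA matches in capitals, and Spry2 (chr14:105896820-105897069, minus strand), with none, are shown because these are the feedback genes with sequence at hand, and the first did not overlap in B1/P/Rbf against B1/P while the second overlapped in all groups. A match is a description of letters and was not shown to be bound.
Dusp6: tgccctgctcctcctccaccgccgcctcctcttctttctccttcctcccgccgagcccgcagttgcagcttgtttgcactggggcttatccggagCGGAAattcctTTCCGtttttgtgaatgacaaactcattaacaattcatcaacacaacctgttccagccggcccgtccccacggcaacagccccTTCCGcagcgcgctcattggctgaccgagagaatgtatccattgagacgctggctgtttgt
Spry2: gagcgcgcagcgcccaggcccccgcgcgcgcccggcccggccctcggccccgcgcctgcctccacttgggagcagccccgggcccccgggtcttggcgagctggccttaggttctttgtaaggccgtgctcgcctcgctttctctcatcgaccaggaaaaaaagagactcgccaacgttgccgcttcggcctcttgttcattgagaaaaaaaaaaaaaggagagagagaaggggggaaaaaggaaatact

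Spry2, an inhibitor of receptor tyrosine kinase signaling upstream of RAF, overlapped in all groups. B1/P/Rbf levels were 26.4, 4.94, 19.3, 10.2 and 21.2 CPM, B1/P levels 23.5, 25.5, 27.8, 42.1 and 13.2 CPM, and P/Rbf levels 29.7, 39.0, 8.86, 20.9 and 10.9 CPM. The glands were close together at 14.7, 15.5 and 15.4 CPM. The tumors spread by 8.52-fold, with the lowest, B1/P/Rbf 208857, and the highest, B1/P 255232, in different genotypes. None of the 6 differences was called, and the largest were 0.80 ± 0.53 (SE) for B1/P over glands and -0.69 ± 0.45 for B1/P/Rbf against B1/P.

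Spry4, a second Sprouty inhibitor, was highest in B1/P and lowest in P/Rbf tumors. B1/P levels were 14.0, 32.5, 27.7, 35.2 and 18.2 CPM, and P/Rbf levels 11.8, 8.11, 7.24, 5.24 and 8.0 CPM. B1/P/Rbf levels were 30.8, 9.23, 13.3, 12.2 and 9.61 CPM, and gland levels 8.09, 9.52 and 11.8 CPM. Each of the B1/P tumors lay above all of P/Rbf and, narrowly for tumor 225068, above all glands. B1/P/Rbf tumors were low except for 208855, which lay among the B1/P tumors.

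P/Rbf tumors were lower than B1/P tumors in Spry4 by a log2 fold change of -1.66 ± 0.36 (SE), a call that held in all 24 alternatives (-1.81 to -1.49). B1/P tumors were higher than the glands by 1.38 ± 0.43, a call lost in 2 of 24, without gland 330154 (1.26) or 330155 (1.39). The difference of B1/P/Rbf from B1/P was -0.76 ± 0.35, not called with all samples, and -1.2, called, without tumor 208855. The difference of B1/P/Rbf from P/Rbf was 0.89 ± 0.35, not called. The fibroblast marker sum of tumor 208855 was 4638 CPM, the highest of its genotype, where the others were at 799.5 to 2078 CPM. Over the 15 tumors Spry4 correlated with that sum with r = 0.71, and 0.61 within genotypes, and with the luminal sum, which was higher in P/Rbf than in B1/P without overlap, with r = -0.63, and -0.07 within genotypes. The part of stromal or epithelial content in the Spry4 levels was not tested.

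**Figure D3:**
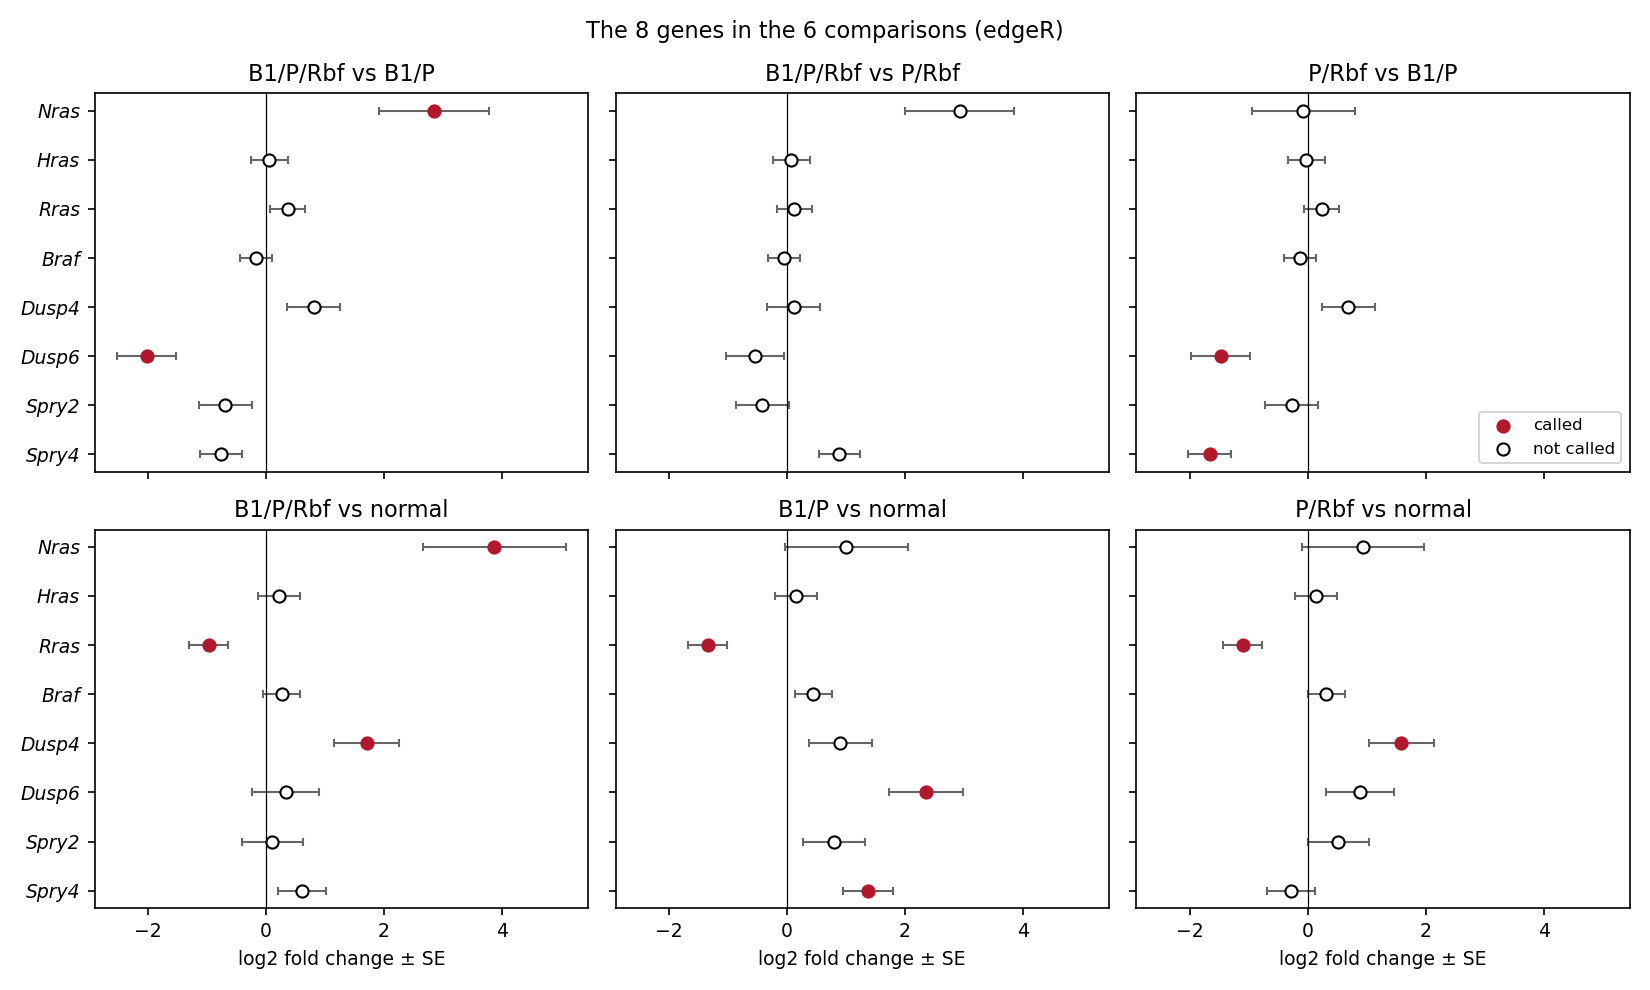
Fitted log2 fold change (points) with its SE (lines) for each of the 8 genes in the 6 comparisons; filled points passed an adjusted p of 0.05. Dusp6 is at -2.02 in B1/P/Rbf against B1/P, Rras is below 0 in all 3 comparisons with the glands, and the long lines of Nras reflect 1 tumor.

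By comparison, between none and 3 of the 8 genes were called. In B1/P/Rbf against B1/P, 2 of 8 were called (Nras and Dusp6), where 16.7% of all genes were called. In P/Rbf against B1/P, 2 of 8 were called (Dusp6 and Spry4), with 19.2% of all genes. In B1/P/Rbf against P/Rbf, edgeR called none of 8, with 0.281% of all genes, and DESeq2 and limma-voom also called none. An unadjusted p under 0.05 was found for 2 of 8, and the share of all genes at that threshold is not given here. Against the glands, B1/P/Rbf tumors had 3 of 8 called (Nras, Rras and Dusp4; 37.0% of all genes), B1/P tumors 3 of 8 (Rras, Dusp6 and Spry4; 33.8%) and P/Rbf tumors 2 of 8 (Rras and Dusp4; 37.7%). Without tumor 208863, 1 of 8 was called in B1/P/Rbf against B1/P (Dusp6, at -2.35) and 2 of 8 in B1/P/Rbf against the glands (Rras at -1.0 and Dusp4 at 1.58), and of the 52 other genes of the route described further on, 13 and 18 were called in place of 14 and 21. The comparisons with B1/P share the same B1/P tumors and those with glands the same 3 glands. Genes that did not overlap and were lower made up 5.48% of all genes in B1/P/Rbf against B1/P, as Dusp6 was, and 5.11% in P/Rbf against B1/P, as Spry4 was. Those higher than the glands without overlap made up 23.1% in B1/P/Rbf, as Nras and Dusp4 were, and 18.7% in B1/P, as Nras, Braf, Dusp6 and Spry4 were.

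The 3 feedback genes Dusp6, Spry2 and Spry4 varied together over the tumors, and Dusp4 did not follow them. Pearson r over log2 levels in 15 tumors was 0.68 for Dusp6 with Spry2, 0.68 for Dusp6 with Spry4 and 0.45 for Spry2 with Spry4, and 0.67, 0.52 and 0.52 after removing genotype means. Dusp4 and Dusp6 had r = -0.29, and 0.19 within genotypes. Dusp6 also varied with some of the 11 ERK output genes, with r = 0.86 for Etv5, 0.80 for Etv4, 0.80 for Phlda1 and 0.85 for Ccnd1 (cyclin D1), and 0.63, 0.62, 0.70 and 0.62 within genotypes. For Epha4, Etv1, Fosl1, Egr1, Epha2, Ier3 and Fos it was 0.70, 0.68, 0.43, 0.41, 0.32, 0.10 and -0.47, and 0.45, 0.57, 0.38, 0.06, 0.70, 0.17 and 0.48 within genotypes, so Epha2 was as close as Phlda1 within genotypes and Fos turned in sign. Dusp4 with Etv5 had r = -0.38, and 0.22 within genotypes. The tumors share genotypes, library sets and tissue composition, so these are descriptions over 15 points.

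**Figure D4:**
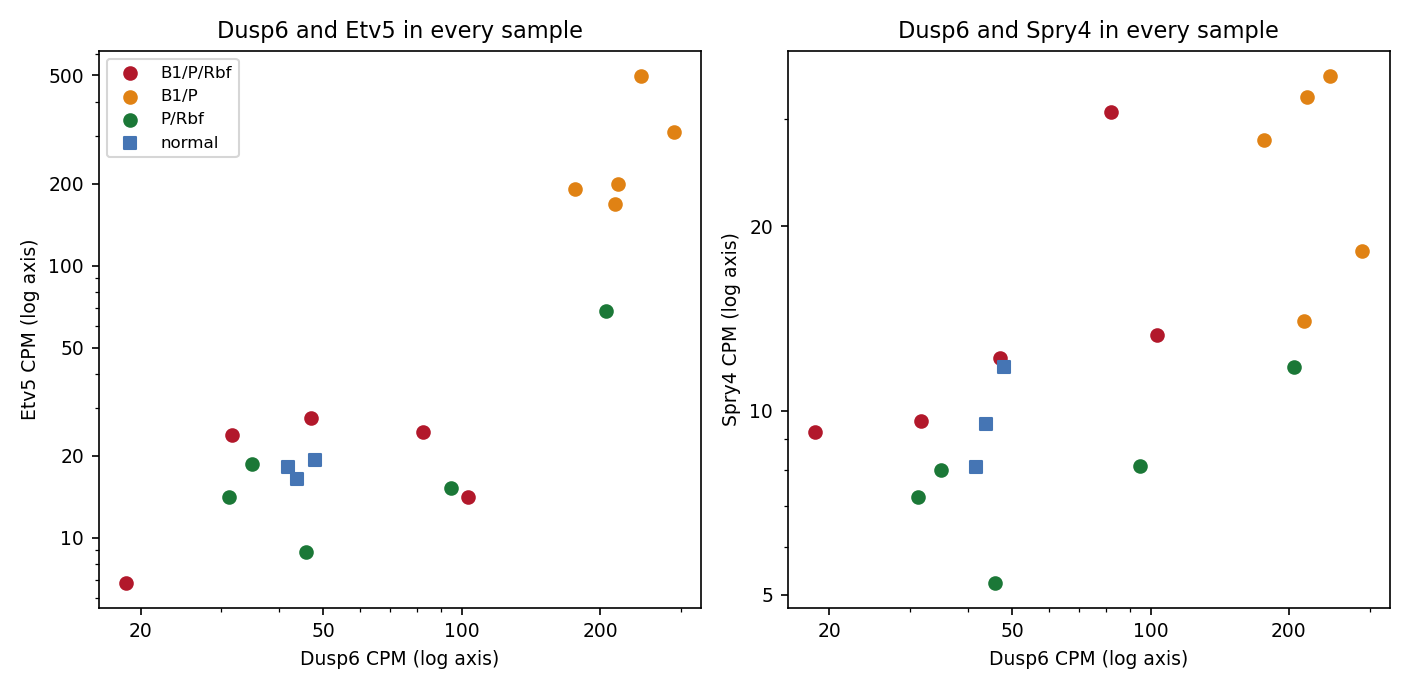
Dusp6 level against that of Etv5 (left) and Spry4 (right) in every sample, both axes in CPM on log scales, each circle 1 tumor and each square 1 gland, colored by group. The B1/P tumors lie at 177 to 289 CPM of Dusp6 and above all others in Etv5, and P/Rbf tumor 287842, at 206 CPM of Dusp6, is the next highest in Etv5 at 68.1 CPM but is at 11.8 CPM of Spry4.

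The genes most like each of the 8 were sought by Pearson r over 15 tumors, among the 12159 genes whose mean level was 5 CPM or more. Nras was closest to Sike1 and Wdr3 (r = 0.98 each), both from the raised stretches of tumor 208863. Hras was closest to 1110004F10Rik, Taf10 and Glrx3 (0.84, 0.83 and 0.82), which all lie on chromosome 7 with Hras, at -25.15, -35.45 and -3.75 Mb from its start, where 7.44% of the searched genes lie on that chromosome. Rras, also on chromosome 7, was closest to Cyfip1 (0.86), Ercc1 (0.82) and Sdf2 (0.79), of which the first 2 share its chromosome. Braf was closest to Luc7l2 (0.84), Ttc7 (0.82) and Caprin2 (0.80), with Luc7l2 at -1.05 Mb on chromosome 6 and Caprin2 on the same chromosome. Dusp4 was closest to Ltk, Cenpv and Sh2d4a (0.88, 0.87 and 0.85), Dusp6 to Pitpnc1, Bach2 and Ttc23 (0.91, 0.91 and 0.88), and Spry2 to Itm2b, Tbc1d22a and Kdelr3 (0.80, 0.80 and 0.79), and of these 9 genes Sh2d4a shares the chromosome of Dusp4 and Itm2b that of Spry2. Spry4 was closest to Cygb, Sulf1 and Cd248 (0.90, 0.87 and 0.87), and Cd248 marks stromal fibroblasts and pericytes. Of the 24 genes found in this way, 12 were on the chromosome of their partner. By Spearman correlation none of the 3 stayed closest for Braf, Dusp4, Dusp6 or Spry2.

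The wider RAS-ERK list held 52 other genes in 6 roles, all kept by the filter. In B1/P/Rbf against B1/P, 4 were higher and 10 lower (median -0.26, against -0.06 for all genes), and in P/Rbf against B1/P, 4 were higher and 8 lower (median -0.01, against -0.05). The share called was 26.9% and 23.1%, against 16.7% and 19.2% of all genes. Etv5 was lower where Dusp6 was: it was at 168, 199, 191, 497 and 310 CPM in the B1/P tumors, whereas B1/P/Rbf tumors had 6.85 to 27.5 CPM, a log2 fold change of -3.82 ± 0.55 (SE; edgeR's quasi-likelihood test, adjusted p = 0.000486, and 6.23e-12 to 0.00233 over the alternatives). In P/Rbf tumors Etv5 was at 8.87 to 68.1 CPM, lower by -3.45 ± 0.54 (edgeR, adjusted p = 0.000842, and 6.73e-10 to 0.00801). Against B1/P, luminal markers were called higher for 2 of 5 in B1/P/Rbf and 4 of 5 in P/Rbf. Myoepithelial markers had median log2 differences of -2.75 and -1.17, with 1 of 5 called lower in each. The part of cell composition in the differences from B1/P of the genes named here was not tested. Against B1/P, Ccnd1 was lower in B1/P/Rbf by -4.01 ± 0.71 (edgeR, adjusted p = 0.00172, and 1.29e-08 to 0.00867) and in P/Rbf by -2.17 ± 0.66 (edgeR, adjusted p = 0.0299, and 0.00438 to 0.0881), where the call was lost without B1/P tumor 255232 or 248662 or P/Rbf tumor 290860, 287822 or 290845 (-1.96 to -1.85) and with only the groups compared. The library sets stood apart within B1/P, with Ccnd1 at 172.8 to 433.9 CPM in set 1 and 1109 to 1212 CPM in set 2. Within set 1 the mean log2 difference of B1/P/Rbf was -3.15, and within set 2 that of P/Rbf was -3.57, both without overlap. Of the feedback genes beside the 8, Spred1 and Spred2, Sprouty relatives, were lower in both, by -1.40 and -0.76 in B1/P/Rbf and by -0.89 and -1.18 in P/Rbf (edgeR, adjusted p of 0.00441 and 0.0214, and of 0.0414 and 0.00196). The Spred2 call in B1/P/Rbf was lost in 4 of 25 alternatives, with a library-set term, with only the groups compared and without tumor 208857 (-0.66) or 246361 (-0.65), and the Spred1 call in P/Rbf was lost in 13, of which 11 were leave-one-out fits (-0.97 to -0.58). The 4 genes higher than in B1/P were Dusp10, Dusp16, Fos and Map2k1 in B1/P/Rbf and Dusp7, Dusp10, Dusp16 and Fos in P/Rbf. Dusp10, a phosphatase that acts mainly on the stress kinases JNK and p38, was at 22.7 to 45.1 CPM in B1/P/Rbf against 1.95 to 20.2 CPM in B1/P (2.21 ± 0.54; edgeR, adjusted p = 0.0106, and 0.000373 to 0.0318) and 2.33 ± 0.54 in P/Rbf (edgeR, adjusted p = 0.00764, and 0.000164 to 0.134, lost with a library-set term). Fos, an AP-1 subunit on the list of ERK output genes, was at 30.1 to 37.3 CPM in B1/P, 51.1 to 112.1 CPM in B1/P/Rbf and 71.5 to 139.6 CPM in P/Rbf, so that neither group overlapped with B1/P. It was higher by 1.13 ± 0.26 in B1/P/Rbf (edgeR, adjusted p = 0.00771, and 0.000565 to 0.0234) and by 1.54 ± 0.26 in P/Rbf (edgeR, adjusted p = 0.00135, and 1.13e-06 to 0.0221), and both calls held in all 25 alternatives. Dusp16, a second phosphatase of the stress kinases, was higher by 1.39 ± 0.39 and 1.37 ± 0.39 (edgeR, adjusted p = 0.0216 and 0.0206, and up to 0.0606 and 0.244), and the calls were lost without B1/P/Rbf tumor 208857 (edgeR, adjusted p = 0.0606) and, in P/Rbf, without tumor 287845 (1.10), with only the groups compared and with a library-set term, where the mean log2 difference within set 2 was 0.88 with overlap. Map2k1, the kinase MEK1, was higher in B1/P/Rbf by 1.26 ± 0.27 (edgeR, adjusted p = 0.00579, and 0.000219 to 0.0273), held in all 25 alternatives, and Dusp7, an ERK phosphatase, was higher in P/Rbf by 1.28 ± 0.36 (edgeR, adjusted p = 0.0196, and 0.0019 to 0.132, lost with limma-voom, only the groups compared and a library-set term). Rasgrp1, a RAS exchange factor of lymphocytes, was lower than in B1/P by -2.35 ± 0.66 in B1/P/Rbf (edgeR, adjusted p = 0.0213, and 0.00177 to 0.126) and by -3.55 ± 0.69 in P/Rbf (edgeR, adjusted p = 0.00293, and 6.98e-07 to 0.213), and B1/P tumors 225068 and 246361 carried most of it, at 42.7 and 53.2 CPM against 3.46 to 10.3 CPM in the other 3. Both high tumors are of set 1 and all P/Rbf tumors of set 2: the P/Rbf call was lost with a library-set term, and within set 2 the mean log2 difference was -1.20, with B1/P at 3.46 to 5.23 CPM and P/Rbf at 0.861 to 2.76 CPM. The B1/P/Rbf call was lost without B1/P tumor 225068 (-2.01) or 246361 (-1.78) or B1/P/Rbf tumor 208863 (-2.22), and with limma-voom and only the groups compared. In B1/P/Rbf against P/Rbf, edgeR called none of the 52, with 13 at an unadjusted p under 0.05, limma-voom none and DESeq2 6. The shares of all genes at that unadjusted threshold and with DESeq2 are not given here, so these counts have no background beside them.

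Against the glands, B1/P/Rbf tumors had 14 of the 52 higher and 7 lower (median 0.33, all genes 0.05), 15 and 6 in B1/P (0.64, all genes 0.12), and 13 and 5 in P/Rbf (0.29, all genes 0.05). The share called was 40.4% in B1/P/Rbf, 40.4% in B1/P and 34.6% in P/Rbf, against 37.0%, 33.8% and 37.7% of all genes. Among 11 ERK output genes, B1/P/Rbf tumors had 4 called, all higher (36.4%, against 37.0% of all genes), B1/P tumors 8, of which 7 were higher (72.7%, against 33.8%), and P/Rbf tumors 5, all higher (45.5%, against 37.7%). The one lower in B1/P was Fos, by -0.81 ± 0.29 (edgeR, adjusted p = 0.0406, and 0.0077 to 0.332), a call lost in 11 of 25 alternatives, among them without any B1/P tumor (-0.85 to -0.77) or without gland 330155 (-0.44) or 330156 (-0.90). B1/P tumors were higher in Etv5 by 3.93 ± 0.69 (SE; edgeR, adjusted p = 0.000359, and 3.58e-10 to 0.00346) and in Etv4 by 3.35 ± 0.72 (edgeR, adjusted p = 0.00198, and 1.09e-06 to 0.0139). Etv4 was also higher than the glands in B1/P/Rbf by 1.86 ± 0.67 and in P/Rbf by 1.83 ± 0.67 (edgeR, adjusted p = 0.037 and 0.0395, and up to 0.11 and 0.111), calls lost in 8 and 5 of 24 alternatives, among them without any gland, the first also without tumor 208855, 209490 or 210906 and the second without tumor 287842. Dusp9, another ERK phosphatase, was higher by 3.44, 3.25 and 4.16 (edgeR, adjusted p = 0.00242, 0.00389 and 0.000712, and up to 0.0421, 0.0257 and 0.00898), with 19 to 33 expected counts in the glands, and Dusp2, a phosphatase of lymphocytes, was lower by -3.25, -3.15 and -2.62 (edgeR, adjusted p = 0.000103, 0.000167 and 0.000598, and up to 0.00327, 0.00174 and 0.00485). T cell markers moved with Dusp2 and Rasgrp1, summing to 188.5 to 285.8 CPM in the glands and 1.62 to 34 CPM in the tumors, and their part in both was not tested. Rasgrp1 was lower by -3.02 in B1/P/Rbf and -4.22 in P/Rbf tumors (edgeR, adjusted p = 0.00351 and 0.000317, and up to 0.0179 and 0.00186). Epha2, a receptor induced by ERK, was higher in all 3 tumor groups, by 2.58 ± 0.61 in B1/P/Rbf, 2.81 ± 0.61 in B1/P and 3.92 ± 0.65 in P/Rbf (edgeR, adjusted p = 0.0032, 0.00215 and 0.000186, and up to 0.0207, 0.0166 and 0.00478), and these calls held in all 25 alternatives. Fosl1, an AP-1 subunit, rested on 2, 3 and 3 expected counts in the glands and its higher level passed the test in each tumor group. However, the B1/P/Rbf call was lost in 5 of 24 alternatives, among them without tumor 208863 (4.03) or without any gland (4.37 to 4.55).

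**Figure D5:**
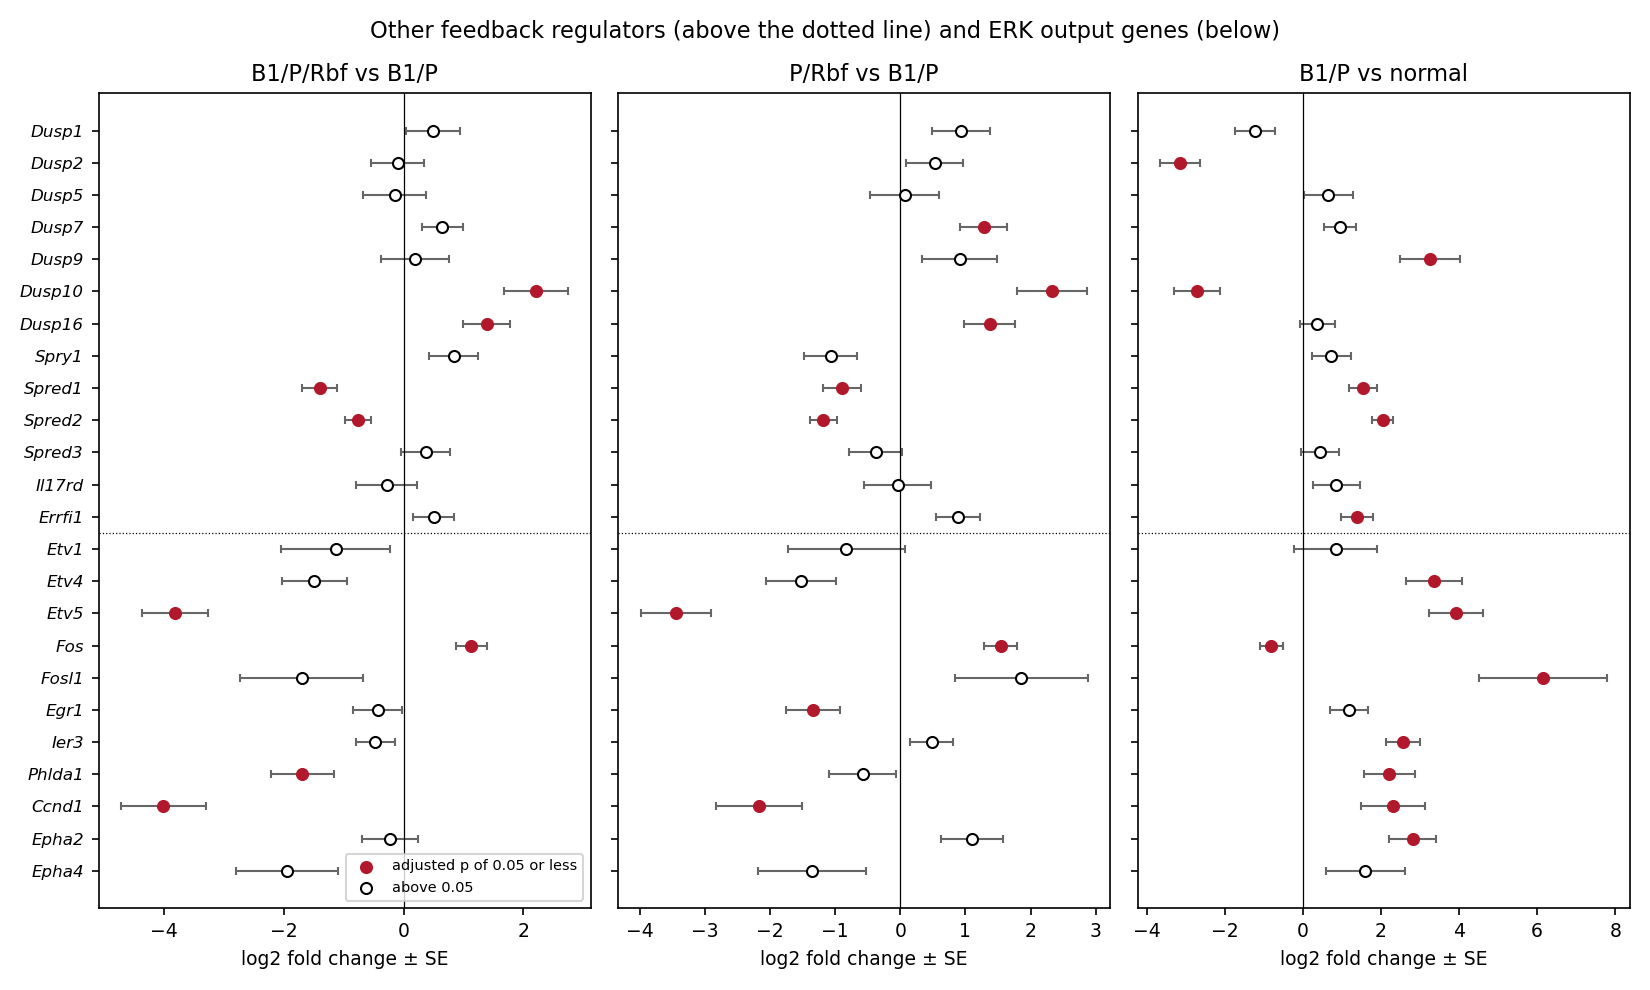
Fitted log2 fold change (points) with its SE (lines) of the 13 other feedback regulators and the 11 ERK output genes in 3 comparisons; filled points passed an adjusted p of 0.05. Etv5 is at -3.82 and -3.45 in the comparisons with B1/P tumors and at 3.93 in B1/P against the glands, Dusp10 and Fos have the opposite sign throughout, and the Fosl1 value against the glands rests on 2 to 3 expected counts per gland.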

How the data were processed

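RNA from whole tumors and glands was sequenced by the authors as paired reads after an Illumina stranded mRNA preparation, with all 18 libraries on 1 NovaSeq pool. Reads were trimmed with cutadapt 1.18 and quantified with RSEM 1.3.0, per the study's methods and the submitters' processing notes. The deposited values are RSEM expected counts per gene, of which 5.61% were not whole; they were rounded here. The methods name a human reference, but all 55450 identifiers match mouse GENCODE M21 (GRCm38), which gave the gene positions. Close paralogs can share reads, which RSEM divides by estimate.

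Genes were kept by edgeR's filterByExpr (minimum count 10), leaving 19186. Levels are CPM of library sizes adjusted by the trimmed mean of M values (TMM), with prior count 2 on the log2 scale. One quasi-likelihood model (edgeR 4.0.16, R 4.3.3) was fitted to all 18 samples with a term for group, and 6 comparisons were adjusted by Benjamini-Hochberg over all kept genes, with calls at an adjusted p of at most 0.05. The SE given with an edgeR fold change is its absolute log2 value divided by the square root of the quasi-likelihood F statistic. It is therefore tied to the test. Every sample is a separate mouse. The library sets were taken from an earlier analysis of these data, which inferred them from the study's listed fold changes; neither the labels nor the methods name them. Deviations of 1 tumor are log2 CPM minus the median of the other 4 tumors of its genotype. Named were all 8 genes; of the pathway list the 4 called genes of largest absolute change in each comparison; for each of the 8 the most deviant tumor and, where it deviated by at least 1 and at least 15 of 20 neighbours moved with it, the 4 largest neighbours; and the 3 genes of highest correlation. Other genes (those of chromosome 3 in tumor 208863, Spred1, Spred2, Fos, Dusp7, Dusp16, Map2k1, the ranks in tumor 208863) were chosen after their values were seen. Some genes these rules reach are not reported or drawn here. The 8 genes and all lists were chosen with earlier results of these data known. Alternatives were DESeq2 1.42.0, limma-voom 3.58.1 after quantile scaling, plain library sizes in place of TMM, no filter on counts (32772 genes tested), the study's own filter (log2 CPM of 6 or more in 6 or more samples, 4551 genes), only the groups compared, a library-set term, and leaving out each sample in turn. Tables were handled with Python 3.11.15 and pandas 2.3.3.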

Additional observations from a re-analysis of the deposited data

Results flagged for a closer look

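The Nras level of tumor 208863 was far from the other B1/P/Rbf tumors. Its gap to the nearest of the other 4, divided by the range of all 5 on the log2 scale, was 0.92, above the critical value of 0.71 for 5 samples. It was the only one of 24 groups of 5 tumors (8 genes in 3 genotypes) to pass that value. Chance alone passes about 1 in 20, so in number 1 of 24 is no more than chance gives. That count does not weigh how far 0.92 lies past the critical value. The Nras level of this tumor was known when the 8 genes were chosen, so the value is a description. The glands, being 3, were not examined in this way.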

How the results depend on the processing

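No paired analysis was possible because the labels give no shared replicate numbers across groups and every sample came from a different mouse. Nras in B1/P/Rbf against B1/P tumors reversed without B1/P/Rbf replicate 3 (tumor 208863), to -0.24, and ran from -0.24 to 3.15 over the fits that left out 1 sample. Of the 8 genes, the number called in B1/P/Rbf against B1/P went from 2 to 1 with DESeq2, limma-voom, only the groups compared and a library-set term. Between P/Rbf and B1/P tumors it went from 2 to 1 with no filter, the log2 CPM filter, only the groups compared and a library-set term. Against the glands it went from 3 to 1 for B1/P/Rbf with a library-set term, where Nras, Rras and Dusp4 were all lost and the 1 called was Hras, from 3 to 1 for B1/P with the log2 CPM filter, and from 2 to 1 with limma-voom and to 0 with the log2 CPM filter for P/Rbf; that filter tests fewer of the 8 genes. Leaving out 1 sample gave 1 to 3 (B1/P/Rbf against B1/P), 0 to 0 (B1/P/Rbf against P/Rbf), 1 to 2 (P/Rbf against B1/P), and 0 to 3, 2 to 4 and 0 to 3 against the glands (B1/P/Rbf, B1/P, P/Rbf).

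Of the 52 other pathway genes, 14 were called in B1/P/Rbf against B1/P (4 higher, 10 lower), with 9 (5 lower) when only the groups were compared and 6 lower with a library-set term. Between B1/P/Rbf and P/Rbf the 0 called became 6 with DESeq2 (3 higher, 3 lower) and 1 higher without TMM. Between P/Rbf and B1/P the 12 called (4 higher, 8 lower) became 7 (2 higher, 5 lower) both with only the groups compared and with a library-set term. Against the glands the 21 called for B1/P/Rbf (14 higher, 7 lower) became 10 (7 higher, 3 lower) with the log2 CPM filter and 11 (6 higher) with a library-set term, the 6 lower for B1/P became 3 without TMM, and the 18 called for P/Rbf (13 higher, 5 lower) became 8 (6 higher, 2 lower) with the log2 CPM filter. Leaving out 1 sample gave 9 to 15 (3 to 6 higher, 6 to 11 lower), 0 to 1 (0 to 1 higher) and 8 to 14 (3 to 5 higher, 4 to 9 lower) between tumors, in the order above, and 13 to 22 (8 to 15 higher, 5 to 8 lower), 13 to 24 (10 to 17 higher, 3 to 8 lower) and 13 to 20 (10 to 14 higher, 3 to 6 lower) against the glands. The cause of these changes was not tested where fewer genes or samples do not account for them.

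The neighbour median of Nras, 0.45, was 4.08 over 5 neighbours on each side and 0.10 against the other 14 tumors. That of Hras, 0.29, was -0.32 against the other 14, and over 5 neighbours that of Dusp6, 0.91, was 0.40 and that of Spry4, 0.12, was 0.34. By Spearman correlation 2 of 3 closest genes stayed for Nras, Hras and Rras, 1 for Spry4 and 0 for Braf, Dusp4, Dusp6 and Spry2. Chosen after seeing the data, a run threshold of 3 in place of 2 left 6 of the 12 runs of tumor 208863, 5 of them on chromosome 3, and listing filtered genes raised 33 genes near Nras to 49. With 5 tumors or 3 glands a group, single samples set several calls, and counting error was not separated from the spread between mice.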
